A study of Homo sapiens with 10 samples.

Results

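The genes described here are 9 genes of thyroid hormone handling: the deiodinases DIO1, DIO2 and DIO3, the membrane transporters SLC16A10 and SLC7A8, the nuclear receptors THRA and THRB, and the hormone-binding proteins TTR and CRYM. They were taken by gene symbol, 9 of the 28265 symbols counted, and were followed through 5 weekly samplings of human thyroid organoids differentiating from embryonic stem cells. RNA was sequenced from live NKX2-1 GFP+ cells sorted from the organoids on days 16, 23, 31, 38 and 45, with 2 libraries per day and 10 libraries in all. The total count per library ranged from 7247268 to 10333933.

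All libraries came from ESIBIe003-A-6, a selected clone of a human embryonic stem cell line that carries GFP at the NKX2-1 locus and doxycycline-inducible NKX2-1 and PAX8 transgenes, so no library lacked the transgenes. Every culture had received Activin A, which directs stem cells to endoderm, and then doxycycline. The labels name c-AMP for days 16, 23 and 31, TSH with DEX (dexamethasone, a synthetic glucocorticoid) for day 38, and TSH with SB (SB431542, an inhibitor of TGF-beta receptor kinases) for day 45. The methods of the study differ from these labels in that they keep the cells in basal medium up to day 16, begin TSH and dexamethasone shortly before the day 31 sampling and continue dexamethasone to day 45. They place the start of SB431542 both on day 38 and on the day before, so whether the day 38 cells had received it is not settled by the sources used here. Wells were pooled for each sample, and the 2 libraries of a day were described as biological replicates. Because age and medium changed together, a week of culture and a change of medium cannot be told apart in these comparisons, and organoids kept in c-AMP at the later days were not analysed here.

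Thyroid follicular cells make thyroxine, most of which must be converted to the more active triiodothyronine by removal of an iodine from its outer ring. DIO1 and DIO2 catalyse that step, whereas DIO3 removes an iodine from the inner ring and inactivates the hormone. The hormones cross membranes through transporters, are carried in plasma or cytosol by binding proteins, and act through the nuclear receptors THRA and THRB, which pair with retinoid X receptors on target genes.

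The 3 deiodinases are selenoproteins: each reads an in-frame TGA codon, normally a stop, as selenocysteine in its active site. The 45 bases around that codon are shown for each gene from the GRCh38 genome with GENCODE coordinates, with TGA in capitals, because they are the feature that the 3 enzymes share and that ties their translation to the selenoprotein machinery measured below. The stretch of DIO1 lies at chr1:53904683-53904727 on the plus strand in coding exon 2, that of DIO2 at chr14:80203091-80203135 on the minus strand in coding exon 2, and that of DIO3 at chr14:101561983-101562027 on the plus strand in its single coding exon.
DIO1: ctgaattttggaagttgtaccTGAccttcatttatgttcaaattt
DIO2: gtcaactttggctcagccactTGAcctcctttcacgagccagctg
DIO3: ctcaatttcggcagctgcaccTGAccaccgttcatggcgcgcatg
The codon shown was number 126 of DIO1, 133 of DIO2 and 170 of DIO3. The coding sequence of DIO2 held 2 in-frame TGA codons, and those of DIO1 and DIO3 held 1 each. DIO1 and DIO3 shared 28 of the 45 bases, DIO2 and DIO3 shared 27, and DIO1 and DIO2 shared 24.

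Because the labels name c-AMP or TSH, whose receptor signals through cyclic AMP, the promoters were searched for TGACGTCA, the palindromic cyclic AMP response element. By the methods of the study, the cells were in basal medium up to day 16. RefSeq start sites on GRCh38.p14 gave 12 windows of 250 bases before to 50 after the start for 7 of the 9 genes, TTR and CRYM being without an entry. One window, from 1 of the 2 starts of DIO2, held TGACGTCA, against 1.85% of all 35116 windows. The 250 bases before that start, at chr14:80212179-80212428 on the minus strand, are shown with the match in capitals, 96 to 89 bases before the start.
DIO2 upstream: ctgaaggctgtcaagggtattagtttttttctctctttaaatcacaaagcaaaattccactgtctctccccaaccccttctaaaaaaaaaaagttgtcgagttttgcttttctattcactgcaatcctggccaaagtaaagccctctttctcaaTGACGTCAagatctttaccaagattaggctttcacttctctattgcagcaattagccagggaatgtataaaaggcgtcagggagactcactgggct
The shorter letters TGACG, which overlap that palindrome and were sought on both strands, were held by 1 of 2 windows of DIO2, 1 of 4 of SLC7A8, 1 of 2 of THRB and none of DIO1, DIO3, SLC16A10 or THRA, against 24.6% of all windows. A match of letters is a description of the sequence only.

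Before the genes were compared, the sorted cells were checked against 8 thyroid markers. At least 7 of the 8 had counts in every library, and TG, the hormone precursor thyroglobulin, stood at 10.7 and 11.7 CPM (counts per 1e+06 counts, scaled with edgeR's TMM factors) on day 16, at 199.9 and 211.5 on day 31, and at 7964 and 7525 on day 45. Throughout, paired values are replicate 1 and then replicate 2 of a day. From day 16 to day 45, 5 of the 8 markers rose and 3 fell by edgeR's test, where 12.9% of all genes rose and 11.7% fell. The 3 that fell were genes of thyroid transcription factors: FOXE1 went from 763.9 ± 188.7 CPM (SD, n = 2) to 211.0 ± 9.55 (edgeR's adjusted p = 6.09e-13), PAX8 from 650.0 ± 109.8 to 517.9 ± 25.3 (adjusted p = 0.0453) and NKX2-1, whose locus carries the GFP used for sorting, from 86.9 ± 4.36 to 62.4 ± 6.12 (adjusted p = 0.0202). Between days 38 and 45, 1 marker, TG, rose and NKX2-1 (2.30-fold), FOXE1 (1.77-fold) and HHEX (1.82-fold), a homeobox gene of the thyroid bud, fell (adjusted p = 6.3e-07, 4.01e-05 and 3.7e-05), where 4.85% of all genes rose and 6.35% fell.

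Of the 9 genes, 7 changed over the 5 days together by the quasi-likelihood test of edgeR (Benjamini-Hochberg adjusted p over 21014 genes, threshold 0.05), where 36.3% of all genes did; THRA and CRYM were the others. All 9 passed the filter on low counts (at least 5 counts in at least 2 libraries). Between days 16 and 23, 4 of the 9 changed (10.9% of all genes), 3 of them upward (5.60%) and 1 downward (5.33%). Between days 23 and 31, 1 changed (2.25%), upward (1.58%; 0.666% of all genes fell). Between days 31 and 38, 3 changed (15.0%), 1 upward (8.80%) and 2 downward (6.23%). Between days 38 and 45, 1 changed (11.2%), upward (4.85%; 6.35% of all genes fell), and between days 16 and 45, 6 changed (24.6%), 3 upward (12.9%) and 3 downward (11.7%). The median log2 fold change of the 9 genes was 0.34, 0.02, -0.18 and -0.06 over the 4 weekly steps and 0.87 from day 16 to day 45, beside medians of all genes of -0.02, 0.00, 0.00, -0.02 and 0.00. Between days 31 and 38, 1850 of all genes rose and 1310 fell; with library size alone in place of TMM factors these were 1182 and 2368, the median of all genes being -0.20, and SLC16A10 then passed as lower (log2 fold change -0.77, adjusted p = 0.0178 against 0.124). With 2 libraries per day, the p-values rest on a spread between libraries of the same day that is estimated over all 5 days together. They do not measure the spread of the compared days alone. In these bulk samples fewer cells of a type and less RNA per cell cannot be told apart.

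**Figure D1:**
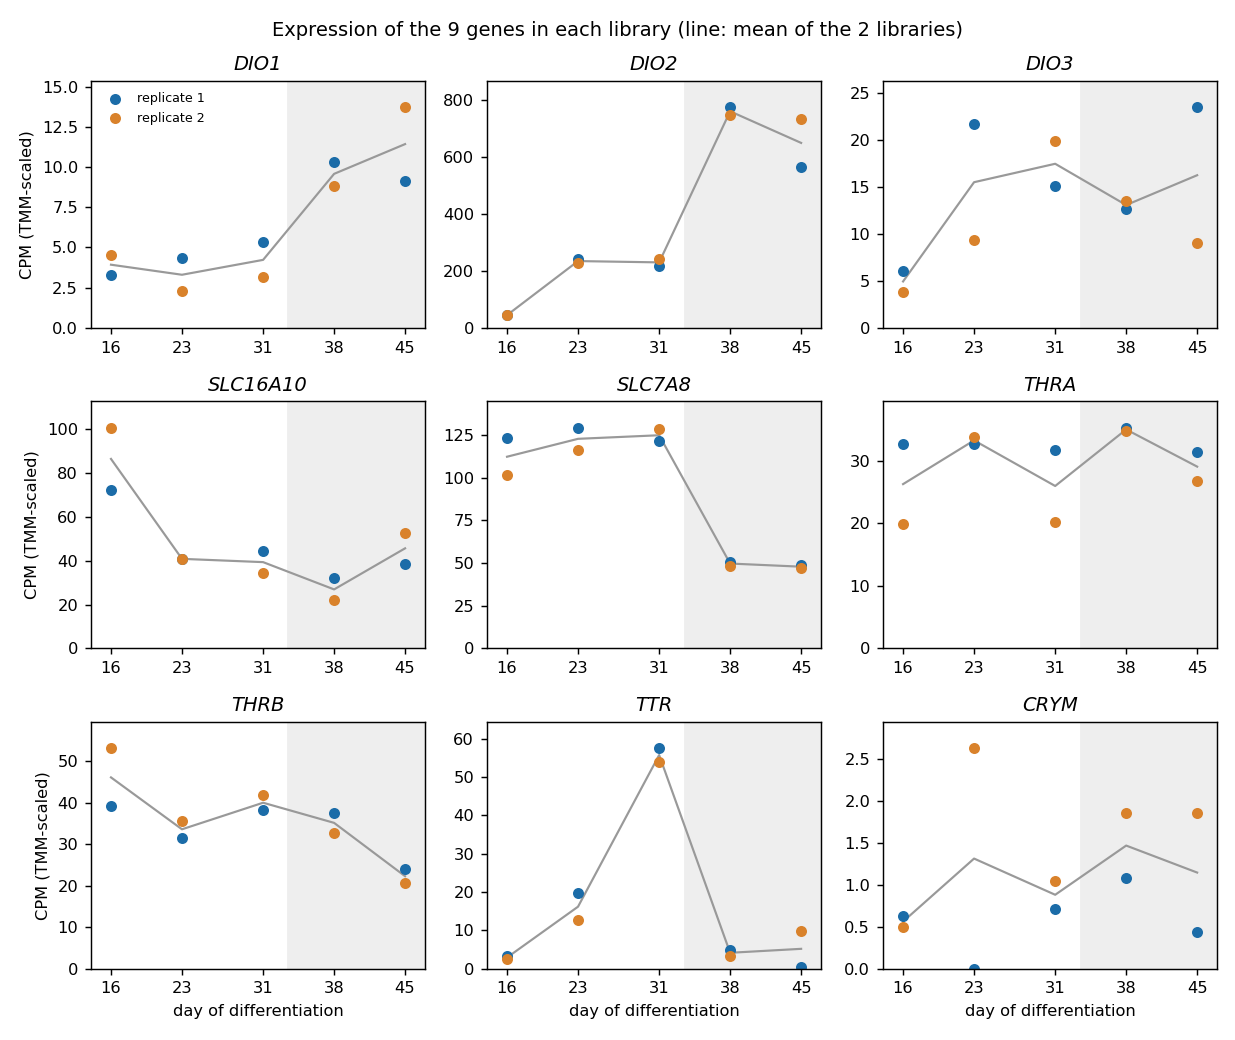
Expression of the 9 genes in each of the 10 libraries, in CPM scaled with TMM factors on a linear axis from 0, against the day of differentiation; points are libraries, the line joins the means of the 2 libraries of a day, and the shaded days 38 and 45 are those labelled TSH. DIO2 rises on days 23 and 38, SLC7A8 drops on day 38, and TTR peaks on day 31.

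DIO2, the outer-ring deiodinase that supplies triiodothyronine within cells, rose in a pair of steps. It stood at 45.6 and 44.2 CPM on day 16, at 242.2 and 226.6 on day 23, at 216.2 and 243.4 on day 31, at 772.8 and 746.0 on day 38, and at 565.3 and 732.0 on day 45. Both libraries of days 23 and 31 lay above both of day 16, both of days 38 and 45 lay above all earlier libraries, and days 23 and 31 overlapped while both libraries of day 45 lay below both of day 38. The first step was 5.22-fold (log2 fold change 2.38, SE 0.14, adjusted p = 1.38e-14) and the step to day 38 was 3.31-fold (log2 fold change 1.73, SE 0.13, adjusted p = 2.28e-12), both from edgeR's quasi-likelihood test. Between them the difference was -0.03 on the log2 scale (SE 0.13, adjusted p = 0.986), and from day 38 to day 45 it was -0.23 (SE 0.13, adjusted p = 0.301). From day 16 to day 45 the rise was 14.4-fold (adjusted p = 1.24e-20), and it remained past the threshold in each of the 10 fits that left out 1 library. DIO2 lies at chr14:80197526-80387757 on the minus strand (GRCh38, GENCODE annotation, as for all gene positions here). Its antisense gene DIO2-AS1, which overlaps it on the other strand, held 19 counts over all libraries. The strand setting of the counting is not given in the sources used here.

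DIO1, at chr1:53891239-53911086 on the plus strand and best known in liver, kidney and thyroid, was expressed at a low level throughout. Its counts were 26 and 37 on day 16, 39 and 20 on day 23, 52 and 27 on day 31, 95 and 76 on day 38, and 63 and 125 on day 45. In CPM, both libraries of day 38 (10.3 and 8.85) and of day 45 (9.15 and 13.7) lay above all 6 earlier libraries, the highest of which stood at 5.32. The fold from day 16 to day 45 was 2.90 (log2 fold change 1.54, SE 0.58, edgeR's adjusted p = 0.0472). The step from day 31 to day 38 did not pass the test (log2 fold change 1.17, SE 0.57, adjusted p = 0.187). The call from day 16 to day 45 was lost in 5 of 10 fits without 1 library, those without day 16 replicate 1 (adjusted p = 0.209) or 2 (0.0835), day 38 replicate 1 (0.0835) or 2 (0.0796), or day 45 replicate 2 (0.25). It was also lost with library size alone, upper-quartile factors, no filter or the 4 libraries only (adjusted p from 0.0504 to 0.0662).

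DIO3, the inactivating deiodinase, lies at chr14:101560139-101563452 on the plus strand. It stood at 6.09 and 3.82 CPM on day 16, 21.7 and 9.37 on day 23, 15.1 and 19.9 on day 31, 12.7 and 13.5 on day 38, and 23.5 and 9.06 on day 45. All 8 later libraries lay above both of day 16, and the libraries of day 23, like those of day 45, lay on either side of all those of days 31 and 38. It rose 3.14-fold from day 16 to day 23 (log2 fold change 1.65, SE 0.46, edgeR's adjusted p = 0.0147) and 3.26-fold from day 16 to day 45 (log2 fold change 1.71, SE 0.46, adjusted p = 0.0051), with no later weekly step past the test. The day 23 call was lost without day 16 replicate 2 (adjusted p = 0.138) or day 23 replicate 1 (log2 fold change 0.92, adjusted p = 0.355), and the day 45 call without day 16 replicate 2 (adjusted p = 0.0686) or day 45 replicate 1 (log2 fold change 0.87, adjusted p = 0.273).

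The noncoding DIO3OS overlaps DIO3 on the opposite strand over 3314 bases, and without the strand setting its reads and those of DIO3 cannot be told apart with certainty. DIO3OS stood at 3.17 and 2.34 CPM on day 16, at 6.54 and 6.63 on day 23, at 16.9 and 17.0 on day 31, at 4.54 and 3.14 on day 38, and at 1.31 and 4.26 on day 45. Its fall from day 31 to day 38 was 4.39-fold (log2 fold change -2.14, SE 0.58, edgeR's adjusted p = 0.00905), a step at which DIO3 itself moved by -0.42 (SE 0.43, adjusted p = 0.604). The difference between these 2 changes was not tested.

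The 3 deiodinases can be compared with one another only per length, here as CPM per kilobase of annotated exon. On that scale DIO2 made up 58.7% and 61.0% of the 3 together on day 16 and 90.8% and 90.7% on day 38. On day 45 its shares were 83.4% and 90.6%, and those of DIO3 were 12.2% and 3.96%. DIO1 held its highest shares, 13.7% and 20.4%, on day 16, when DIO2 was lowest.

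**Figure D2:**
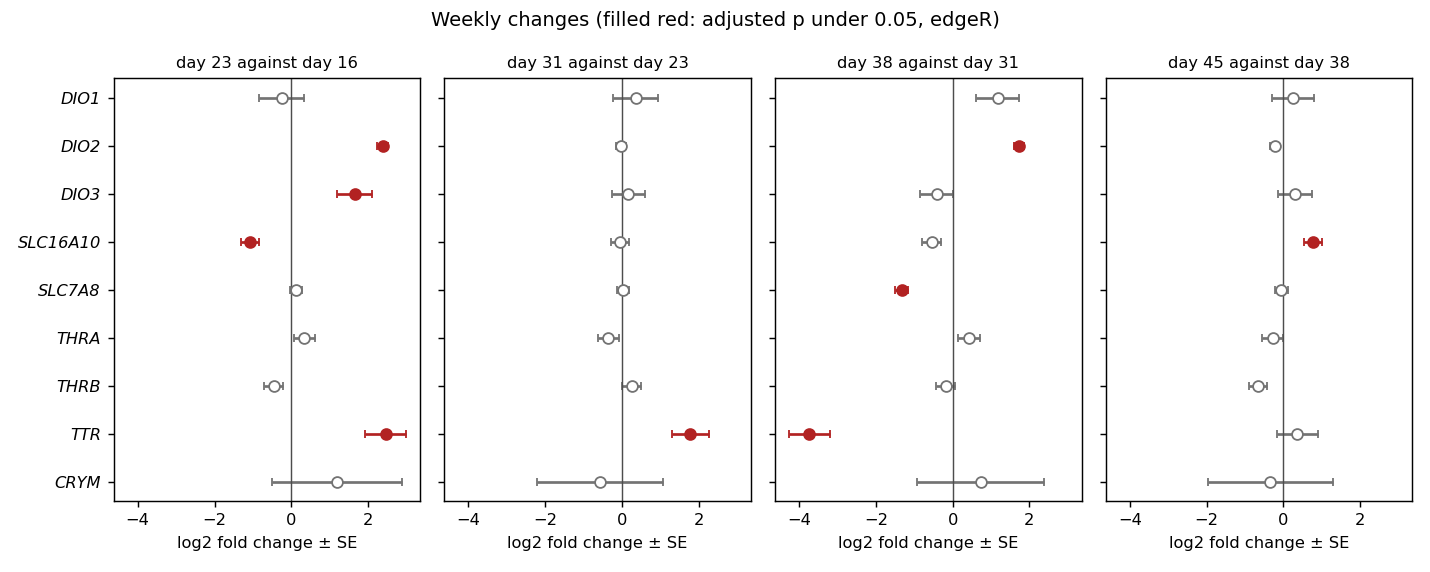
Log2 fold changes of the 9 genes at each weekly step with SE as bars, from edgeR's quasi-likelihood fit over all 10 libraries; filled red points passed an adjusted p of 0.05 and open grey points did not. The steps to days 23 and 38 hold 4 and 3 filled points, and CRYM, with 23 counts or fewer per library, has the widest bars.

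SLC7A8 is a light chain of the system L amino acid exchangers, which also carry thyroid hormones across the membrane together with the heavy chain SLC3A2. The gene, at chr14:23125295-23183674 on the minus strand, held a level at the first 3 days and a lower one at the last 2. It stood at 123.3 and 101.5 CPM on day 16, 129.3 and 116.5 on day 23, 121.4 and 128.6 on day 31, 50.9 and 48.6 on day 38, and 48.9 and 46.9 on day 45. The 6 earlier libraries overlapped by day, and all 4 later ones lay below them. The fall from day 31 to day 38 was 2.51-fold (log2 fold change -1.33, SE 0.16, edgeR's adjusted p = 1.54e-07), and it passed the test in all 10 fits without 1 library, with log2 fold changes from -1.37 to -1.30.

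SLC7A5, the other system L light chain, moved the opposite way over the same week. It stood at 36.0 and 46.9 CPM on day 31 and at 149.3 and 125.1 on day 38, a 3.31-fold rise (log2 fold change 1.73, SE 0.22, edgeR's adjusted p = 2.2e-07), with no overlap between the days. SLC3A2, the shared heavy chain, did not pass the test at that step (56.1 and 68.3 against 67.2 and 63.0 CPM, adjusted p = 0.866) and rose 2.56-fold a week later, to 182.9 and 150.3 CPM on day 45 (log2 fold change 1.36, SE 0.17, adjusted p = 4.31e-07). Per kilobase, the level of SLC7A8 was between 2.06 and 3.05 times that of SLC7A5 in each of the 6 libraries of days 16 to 31. In the 4 later libraries it was between 0.271 and 0.334 times that of SLC7A5.

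SLC16A10, a monocarboxylate transporter that carries aromatic amino acids and thyroid hormones, lies at chr6:111087503-111231194 on the plus strand and was highest on day 16. It stood at 72.3 and 100.6 CPM on day 16, 41.0 and 40.7 on day 23, 44.5 and 34.2 on day 31, 31.9 and 21.9 on day 38, and 38.5 and 52.8 on day 45. All later libraries lay below both of day 16, and those of day 45 lay above both of day 38. It fell 2.12-fold from day 16 to day 23 (log2 fold change -1.08, SE 0.23, edgeR's adjusted p = 0.00135) and rose 1.70-fold from day 38 to day 45 (log2 fold change 0.77, SE 0.24, adjusted p = 0.0295). The later rise was lost without day 38 replicate 2 (adjusted p = 0.43) or day 45 replicate 2 (0.326). From day 16 to day 45 it was lower (log2 fold change -0.92, SE 0.23, adjusted p = 0.00264), a call lost without day 16 replicate 2 (adjusted p = 0.078) or day 45 replicate 1 (0.0732).

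**Figure D3:**
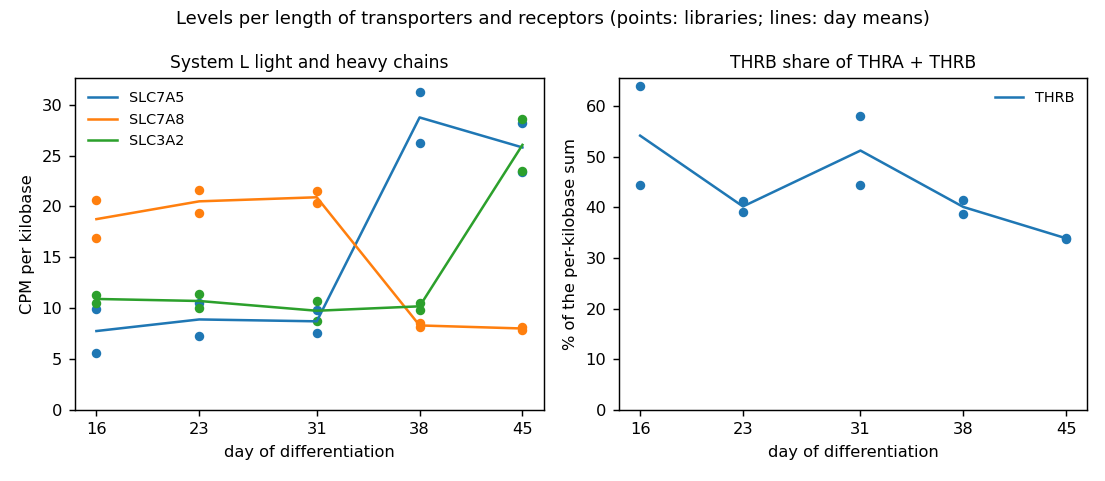
Levels in CPM per kilobase of exon of the system L chains (left), and the share of THRB in the summed per-kilobase level of THRA and THRB in percent (right), against the day of differentiation; points are libraries and lines join day means. SLC7A5 and SLC7A8 change places between days 31 and 38, and SLC3A2 rises on day 45.

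The other 13 genes on the list of thyroid hormone transporters moved mainly upward over the whole course: of 12 tested, 8 rose and 2 fell from day 16 to day 45 (12.9% and 11.7% of all genes), with a median log2 fold change of 1.49 beside 0.00 for all genes. At the steps to days 23, 38 and 45, 1, 3 and 4 of the 12 changed, beside 10.9%, 15.0% and 11.2% of all genes. SLC10A1, a bile acid transporter of hepatocytes, went from 18.8 ± 2.44 CPM (SD, n = 2) on day 16 to 3.17 ± 0.86 on day 38, and rose 7.74-fold to 24.7 ± 2.65 on day 45 (edgeR's adjusted p = 6.88e-06). SLCO1A2, an organic anion transporter, fell 6.97-fold from day 16 to day 45 (41.4 ± 5.15 to 5.87 ± 1.73 CPM, adjusted p = 7.18e-09). SLC17A4 was at 0 counts in all 4 libraries of days 16 and 23 and at 44 and 50 counts on day 45, at least 15.8-fold above a floor of 3 counts per library on day 16 (adjusted p = 0.00149). SLCO1B3, a hepatocyte transporter, was at 0 in all 10 libraries.

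Among the receptors, THRB was lower on day 45 than on day 16 and THRA passed no test. THRB, at chr3:24117153-24495756 on the minus strand, stood at 39.1 and 53.1 CPM on day 16, 31.5 and 35.7 on day 23, 38.2 and 41.8 on day 31, 37.5 and 32.8 on day 38, and 24.0 and 20.6 on day 45. Both day 45 libraries lay below the other 8. Adjacent days did not overlap, yet the mean went down, up, down and down, and no weekly step passed the test. From day 16 to day 45 it fell 2.07-fold (log2 fold change -1.05, SE 0.25, edgeR's adjusted p = 0.00128), and this call was kept in all 10 fits without 1 library. The last weekly step alone gave a log2 fold change of -0.66 (SE 0.25, adjusted p = 0.0822).

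THRA, at chr17:40058290-40093867 on the plus strand, stood at 32.7 and 19.9 CPM on day 16, 32.8 and 33.8 on day 23, 31.8 and 20.2 on day 31, 35.3 and 34.8 on day 38, and 31.4 and 26.8 on day 45. The 2 libraries of day 16, and those of day 31, lay further apart than the means of any 2 days. The test over all days gave an adjusted p of 0.539, and day 45 differed from day 16 by 0.14 on the log2 scale (SE 0.28), which is not detectable at this spread. THRA overlaps NR1D1 over 1075 bases and MED24 over 2926 on the other strand, and its count is uncertain to that extent. Per kilobase THRB made up 44.4% and 64.0% of the sum of both receptors on day 16 and 33.8% and 34.0% on day 45.

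Of the 16 receptor partners and coregulators, 5 changed between days 31 and 38 (15.0% of all genes), 1 upward (8.80%) and 4 downward (6.23%), with a median of -0.22 beside 0.00. PPARGC1A, a coactivator known for driving mitochondrial genes, rose from 18.7 ± 0.39 CPM (SD, n = 2) on day 31 to 65.9 ± 11.7 on day 38 and 121.4 ± 35.6 on day 45, 9.05-fold above day 16 (edgeR's adjusted p = 1.82e-12). CREBBP, a histone acetyltransferase that binds CREB, rose from 316.2 ± 15.7 CPM on day 16 to 626.4 ± 7.83 on day 23 (1.98-fold, adjusted p = 1.64e-07) and fell back to 317.8 ± 8.01 on day 38 (adjusted p = 2.98e-06). NCOA2, a p160 coactivator, also rose to day 23 (1.64-fold, adjusted p = 0.000257) and fell on day 38 (1.52-fold, adjusted p = 0.00119). TBL1XR1, a subunit of the corepressor complex, fell 1.65-fold from day 38 to day 45 (adjusted p = 3.31e-05).

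TTR encodes transthyretin, a plasma carrier of thyroxine made mainly by liver and choroid plexus, at chr18:31557009-31598833 on the plus strand. Its counts were 27 and 20 on day 16, 179 and 110 on day 23, 562 and 464 on day 31, 46 and 29 on day 38, and 4 and 90 on day 45. Both libraries of day 31 lay above all others and both of day 23 above those of days 16 and 38, while the 2 libraries of day 45 spanned the range of days 16 and 38. It rose 5.49-fold to day 23 (log2 fold change 2.46, SE 0.54, edgeR's adjusted p = 0.00188; DESeq2's 0.114) and then 3.44-fold to day 31 (log2 fold change 1.78, SE 0.48, adjusted p = 0.0375). The second rise was lost with DESeq2 (adjusted p = 0.538), with edgeR's filterByExpr (0.0702) and without any 1 library of days 23 or 31 (0.116 to 0.407), with log2 fold changes from 1.49 to 2.15. It then fell 13.3-fold to day 38 (log2 fold change -3.73, SE 0.54, adjusted p = 2.41e-06), past the threshold in all 10 fits without 1 library.

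The day 45 level of TTR rested on which library was read. From day 38 to day 45 the log2 fold change was 0.37 (SE 0.54, edgeR's adjusted p = 0.76), but -2.82 without day 45 replicate 2 (adjusted p = 0.00889). From day 16 to day 45 it was 0.87 (adjusted p = 0.287), -2.31 without replicate 2 (adjusted p = 0.0217) and 1.74 without replicate 1 (adjusted p = 0.00396).

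Markers of other tissues moved with TTR at some steps and not at others. The 12 liver markers summed to 25.1 and 19.5 CPM on day 16, 66.7 and 60.5 on day 23, 380.4 and 341.2 on day 31, 389.8 and 187.2 on day 38, and 708.5 and 665.9 on day 45, with SERPINA1 the most abundant from day 31 on. Of the 12, 7 rose and the other 5 did not pass the test from day 23 to day 31 (1.58% of all genes rose), when ALB went from 1 and 0 counts to 233 and 183, and from day 31 to day 38 1 rose and 5 fell (8.80% and 6.23% of all genes). APOA2 (0 and 0 counts on day 16, 216 and 147 on day 31, 23 and 13 on day 38) was among those that fell, whereas ALB reached 820 and 877 counts on day 45, when TTR was at 4 and 90. APOC3 was at 0 in 7 of the 10 libraries, and APOA2 and RBP4 were at 0 in both of day 16.

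Among the 5 distal lung markers, SFTPB, a surfactant protein gene of the lung, gave 499.2 and 501.8 CPM of the summed 510.3 and 512.5 on day 31, and it stood at 1.48 to 3.55 CPM on day 16 and at 6.59 and 8.62 on day 38. SFTPC, the defining marker of type II alveolar cells, was at 0 in 9 of the 10 libraries and at 1 count in the other. The 8 choroid plexus markers summed to between 75.9 and 117.8 CPM in every library, led by ENPP2 in 8 of the 10, with CLIC6 at 0 in 3 libraries and KL in 1, and 4 of the 8 passed the test at the step to day 23 (2 higher and 2 lower, beside 5.60% and 5.33% of all genes) and 1 at each later step, where 2.25%, 15.0% and 11.2% of all genes did. The part of any of these cell types in the TTR level was not tested.

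**Figure D4:**
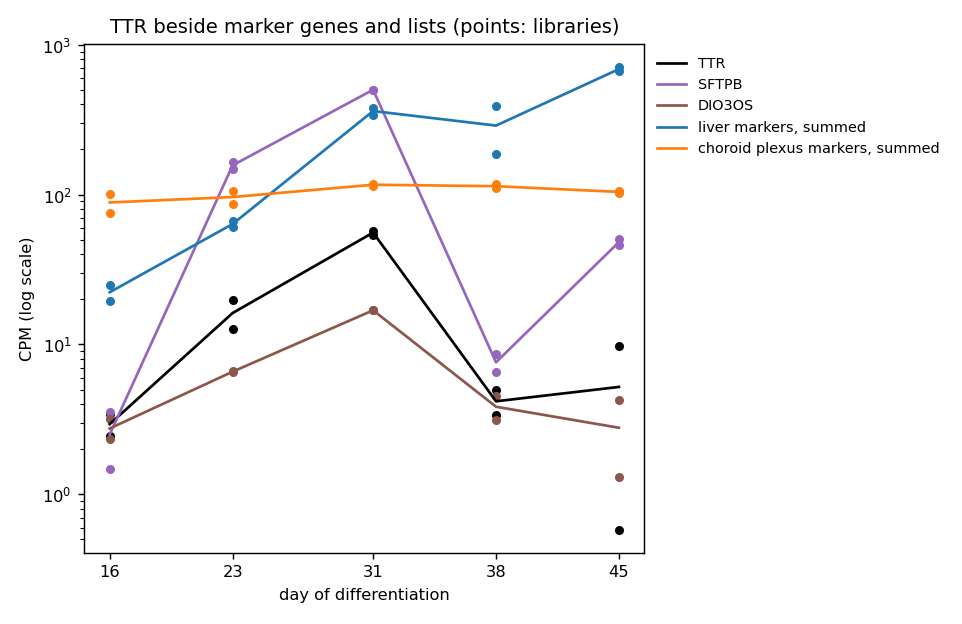
TTR, SFTPB and DIO3OS and the summed levels of the 12 liver and 8 choroid plexus markers in CPM on a log axis against the day of differentiation; points are libraries and lines join day means. TTR, SFTPB and DIO3OS peak on day 31 and are lower on day 38, and the choroid plexus sum stays between 75.9 and 117.8 CPM. The liver sum is 389.8 and 187.2 CPM on day 38 and highest on day 45. From day 31 to day 38, 5 of the 12 liver markers fell and 1, SERPINA1, rose by edgeR's test.

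The other hormone carriers on the list were ALB, described above, and SERPINA7, thyroxine-binding globulin. SERPINA7 was at 0 counts in both libraries of days 16 and 45, at 21 and 17 on day 23, at 37 and 6 on day 31, and at 5 and 0 on day 38. Its test over all days gave an adjusted p of 0.0246 and no single weekly step passed. CRYM, a cytosolic protein that binds triiodothyronine, at chr16:21238874-21303083 on the minus strand, was close to the limit of detection. Its counts were 5 and 4, 0 and 23, 7 and 9, 10 and 16, and 3 and 17 over the 5 days, the libraries of day 23 lying on either side of all others, and the test over all days gave an adjusted p of 0.958.

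Ordered by level per kilobase, SLC7A8 was highest on day 16 (18.8 ± 2.57 CPM per kilobase, SD, n = 2), followed by SLC16A10 (7.69 ± 1.78) and DIO2 (6.08 ± 0.14), each without overlap with the next. From day 23 on DIO2 led, at 31.7 ± 1.49, 31.1 ± 2.61, 102.7 ± 2.56 and 87.7 ± 15.9 CPM per kilobase. On day 31 TTR was second (25.6 ± 1.15) and SLC7A8 the next (20.9 ± 0.85), and with the longest transcript as the length TTR moved ahead of DIO2 (58.3 against 36.1 CPM per kilobase). On day 45 the genes from SLC7A8 (7.99 ± 0.25) down to THRB (2.03 ± 0.21) each overlapped the next. CRYM was lowest at every day, with day means between 0.157 and 0.41.

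**Figure D5:**
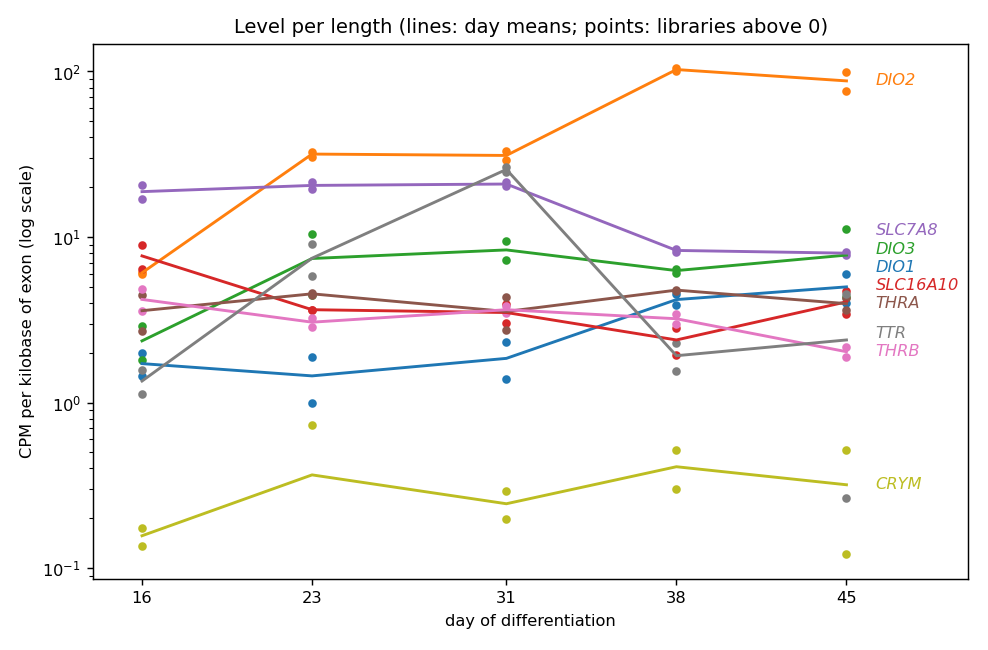
Level of the 9 genes in CPM per kilobase of annotated exon on a log axis against the day of differentiation; lines join day means and points are libraries above 0 (CRYM had 0 counts in 1 library of day 23). DIO2 lies above the other 8 genes from day 23 on, by the widest margin on day 38.

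Of 8 genes of the machinery that puts selenocysteine into the deiodinases, 3 changed between days 31 and 38, beside 15.0% of all genes, and 0 at the steps to days 23, 31 and 45 by edgeR's test, beside 10.9%, 2.25% and 11.2% of all genes (1 at an unadjusted p under 0.05, SEPHS1 between days 38 and 45). SEPHS2, a selenophosphate synthetase that is itself a selenoprotein, rose 1.85-fold and SARS1, the seryl-tRNA synthetase, 1.44-fold, while SECISBP2, which binds the selenocysteine insertion element, fell 1.52-fold (edgeR's adjusted p = 0.0163, 0.043 and 0.00932). Of 6 genes of the ubiquitin cycle of DIO2 protein, 1 changed at the steps to days 23, 38 and 45, beside 10.9%, 15.0% and 11.2% of all genes. WSB1, an E3 ligase adaptor for DIO2, fell 1.96-fold to day 23 (773.2 and 928.5 to 434.9 and 432.5 CPM), rose 3.01-fold to day 38 (1350 and 1330 CPM) and fell 2.29-fold to day 45 (587.0 and 581.8 CPM), with adjusted p-values of 1.14e-07, 8.79e-13 and 1.56e-09. WSB1 was lowest on days 23 and 31, whose libraries overlapped, and highest on day 38, whose libraries lay above all others. MARCHF6, another E3 ligase acting on DIO2, had day means between 410.7 and 525.5 CPM and passed only the test over all days (adjusted p = 0.029).

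Of 12 genes known to respond to thyroid hormone in other tissues, 6 rose and the other 6 did not pass the test from day 16 to day 45, where 12.9% of all genes rose. Their median log2 fold change was 0.97 beside 0.00 for all genes. From day 31 to day 38, 2 of the 12 rose and 2 fell, beside 8.80% and 6.23% of all genes. PCK1 and ANGPTL4 rose (edgeR's adjusted p = 0.0327 and 0.0211), while FASN fell 1.41-fold and FURIN 1.43-fold (edgeR's adjusted p = 0.0149 and 0.0459). KLF9, a transcription factor gene that the hormone and glucocorticoids both induce, went from 25.7 and 40.1 CPM on day 16 to 72.7 and 107.8 on day 45 (2.74-fold, edgeR's adjusted p = 6.77e-06), and BCL3, a direct receptor target in liver cells, from 3.80 and 2.96 to 30.5 and 31.1 (9.09-fold, adjusted p = 2.16e-08). ATP2A2, the calcium pump of the sarcoplasmic and endoplasmic reticulum, rose from 255.9 and 253.4 to 566.6 and 577.5 CPM (adjusted p = 1.36e-09). HR and THRSP, other classical targets, were at 45 counts or fewer in every library and passed no test. Hormone level was not measured in these files.

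Of 8 tested genes of sulfation and glucuronidation, which inactivate iodothyronines, SULT1E1, a sulfotransferase for oestrogens and thyroid hormones, changed at every weekly step. It stood at 0 and 3.32 CPM on day 16, 12.3 and 7.55 on day 23, 32.1 and 25.1 on day 31, 69.6 and 59.2 on day 38, and 15.4 and 14.3 on day 45, with no overlap between any 2 days. The steps were upward to days 23, 31 and 38 (adjusted p = 0.000791, 0.0412 and 0.0418) and downward to day 45 (4.33-fold, adjusted p = 0.000407). From day 16 to day 45, 2 of the 8 rose and 0 fell by edgeR's test, beside 12.9% and 11.7% of all genes. SULT1B1 rose from 0 and 2 counts on day 16 to 52 and 237 on day 45 (adjusted p = 2.05e-06). UGT1A1 was at 0 counts in all 8 libraries of days 16 to 38 and at 13 and 34 on day 45. Its step from day 38 to day 45 did not pass edgeR's test (adjusted p = 0.119). It also shares exons with other UGT1A genes, and its count is uncertain.

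Mesenchymal and other markers also moved on day 38, the step of DIO2, SLC7A8 and TTR. At that step 4 of the 8 thyroid markers rose and 0 fell by edgeR's test, beside 8.80% and 6.23% of all genes. The 5 fibroblast markers summed to between 307.8 and 439.2 CPM in the 6 libraries of days 16 to 31. Their sums were 1278 and 1281 on day 38 and 1349 and 1138 on day 45, mostly from COL1A2 (1151 and 1163 CPM on day 38). On day 38, 2 of the 5 rose and 1 fell, beside 8.80% and 6.23% of all genes. COL1A2 rose 6.36-fold and PDGFRA 2.05-fold (edgeR's adjusted p = 2.63e-16 and 0.0263). LUM fell 2.35-fold (edgeR's adjusted p = 2.8e-06), and DCN and PRRX1 did not pass the test. The 6 cardiovascular markers summed to 31.3 and 26.1 CPM on day 31 and to 181.2 and 184.6 on day 38, led by MYH6, with 3 of 6 higher (8.80% of all genes) and PECAM1, an endothelial marker, at 0 in 7 of the 10 libraries. The 5 airway and goblet markers summed to 12.0 and 27.2 CPM on day 31, to 71.0 and 54.0 on day 38, led by the mucin gene MUC5AC, and to 146.8 and 94.9 on day 45, led by the mucin gene MUC5B. Of the 5, 2 rose to day 38, and 2 rose and 1 fell to day 45 (4.85% and 6.35% of all genes). MUC5AC rose 21.6-fold to day 38 and fell 19.7-fold to day 45 (edgeR's adjusted p = 2.8e-05 and 6.24e-05), while MUC5B rose 5.30-fold and then 4.75-fold (adjusted p = 0.000651 and 0.000526). The part of these cells in the levels of the 9 genes was not tested.

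For each of the 9 genes, the genes whose level ran most alike over the 10 libraries were found by Pearson's correlation of log2 CPM among 13114 genes (13115 for CRYM) with a mean of at least 5 CPM, as a description in which the points share their day. For DIO2 these were FNDC1 (r = 0.992), CTSB (0.99), which encodes the lysosomal protease cathepsin B, and CANX (0.987), which encodes the chaperone calnexin. For TTR they were DIO3OS (0.982), PPM1G (0.956) and PRPF3 (0.95). For SLC7A8 they were LOC284454 (0.989) and the homeobox gene HOXA5 (0.989). For THRB they were SINHCAF (0.97), BORA (0.947) and COX10-AS1 (0.945), and for DIO1 TUG1, SNORA101B and COPS2 (each 0.967). DIO3 was nearest to BID (0.942), ARHGAP23 (0.932) and IMPDH1 (0.922), and SLC16A10 to FAM3C (0.935), MLF1 (0.932) and WFIKKN1 (0.932). The highest values for THRA (PTMS, 0.914, LINC00847, 0.91, and ADNP-AS1, 0.874) and CRYM (DENND6B, 0.882, C7orf25, 0.879, and SARNP, 0.844) were the lowest of the 9.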

How the data were processed

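RNA from 10000 sorted cells per sample was amplified, sequenced and processed by the authors, who trimmed the reads with Trimmomatic, aligned them with HISAT2 and deposited raw HTSeq counts per gene symbol (GRCh38.p13). Tool versions and the strand setting are not given in the sources used here. The deposited counts are neither normalized nor pooled, and blank rows were dropped. Library totals were 7550260 and 8186969 on day 16, 8610133 and 8318446 on day 23, 9122044 and 8065086 on day 31, 10333933 and 9121301 on day 38, and 7247268 and 9592839 on day 45, and 3 counts corresponded to 0.29 to 0.414 CPM before TMM scaling. The counts of the 2 libraries of a day differed by more than sampling noise (chi-square per degree of freedom 8.38 to 13.72); this was checked only to see whether a library had been deposited in duplicate.

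Groups were taken from the sample titles. The 21014 genes that reached 5 counts in 2 or more libraries were fitted with edgeR 4.0.16 (R 4.3.3, limma 3.58.1): TMM factors, 1 mean per day over all 10 libraries, the quasi-likelihood F-test and Benjamini-Hochberg adjustment over all genes tested, at 0.05. SE was taken as the size of the log2 fold change over the root of F. CPM are TMM-scaled and were divided by the union of GENCODE 44 exons for levels per kilobase. Scripts were tested on simulated data. Alternatives were library size alone, upper-quartile factors, DESeq2 1.42.0, no filter, filterByExpr, the 4 libraries of a comparison alone, a replicate block, leaving out each library, and the longest transcript as the length.

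The 9 genes and all lists were chosen with earlier results of these data known. All 9 genes were named in full; of each list, up to 4 genes with the smallest adjusted p over all days and then the most counts were named, with marker genes at 0; genes named beyond these were chosen for their role or their counts after their values were seen. For each of the 9, the 3 genes of highest Pearson correlation (log2 CPM, prior count 2) were named. Values of a few genes on these lists are not reported here, though the counts over a list include them.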

Additional observations from a re-analysis of the deposited data

How the results depend on the processing

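Of the log2 fold changes of the 9 genes, 715 values under an alternative kept their direction and side of the threshold, 24 lost the threshold, 2 newly passed it with the same sign and 24 changed sign, of which 2 newly passed it too: TTR without day 45 replicate 2, lower on day 45 than on day 38 (adjusted p = 0.00889) and than on day 16 (0.0217). Without day 45 replicate 1, TTR passed as higher on day 45 than on day 16 (adjusted p = 0.00396). The number of the 9 genes called between days 23 and 31 was 0 with filterByExpr and with DESeq2, the gene lost being TTR. Leaving out 1 library gave 1350 to 2383 genes called between days 16 and 23, 206 to 646 between days 23 and 31, 1764 to 3614 between days 31 and 38, and 1166 to 2816 between days 38 and 45; of the 9 genes it gave 0 to 1 between days 23 and 31, 0 to 1 between days 38 and 45 (0 without day 38 replicate 2), and 3 to 6 between days 16 and 45 (3 without day 16 replicate 2). A fit that leaves out 1 library assumes that the lone library of that day varies like the others.

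Signs changed between days 16 and 23 for DIO1 (-0.78 to 0.14 on the log2 scale over the fits without 1 library), SLC7A8 (-0.004 to 0.29) and CRYM (-5.31 to 2.20), and between days 23 and 31 for DIO1 (-0.075 to 0.89), DIO2 (-0.13 to 0.054), DIO3 (-0.31 to 0.90), SLC16A10 (-0.26 to 0.12), SLC7A8 (-0.05 to 0.10) and CRYM (-1.56 to 5.94). Between days 38 and 45 they changed for DIO1 (-0.062 to 0.52), DIO3 (-0.53 to 0.84), TTR (-2.82 to 1.23) and CRYM (-1.72 to 0.34), and with upper-quartile factors for SLC7A8 (0.006), and between days 16 and 45 for THRA (-0.17 to 0.53), TTR (-2.31 to 1.74) and CRYM (-0.36 to 1.70). None of these had passed the test with all libraries; the cause was not tested.

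Over 10 pairs of days the deviations of same-numbered libraries, taken over all genes kept, correlated between -0.041 and 0.041. Such a correlation cannot show whether same-numbered libraries shared a run of culture, so pairing is not settled. With the replicate number as a block, 2703, 678, 3472 and 2691 genes were called at the 4 weekly steps. Without the block these were 2296, 473, 3160 and 2353. Of the 9 genes, 4, 1, 3 and 1 were called with the block. The value for CRYM between days 23 and 31 became 0.08 on the log2 scale. DIO1, DIO3, CRYM and the day 45 libraries of TTR had few counts, which limits the differences that could be detected. No group held more than 2 libraries, so no library could be tested as an outlier.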

Other observations

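Of the marker lists not described above, NKX2-1 being also a gene of the ventral forebrain, the 5 forebrain markers summed to 7.35 and 4.19 CPM on day 16, 34.3 and 25.4 on day 38, and 30.2 and 23.6 on day 45. TUBB3, a tubulin gene of neurons, was the most abundant of the 5 in every library (3.55 and 4.06 CPM on day 16, 27.0 and 22.6 on day 38), SIX3 stood at 3.30 and 0 CPM on day 16 and at 6.70 and 2.21 on day 38, and RAX was at 0 in 8 of the 10 libraries. The 3 markers of C cells, the calcitonin-producing cells of the thyroid, summed to 1.65 and 1.85 CPM on day 16 and to 24.8 and 26.2 on day 38. CHGA was the most abundant on day 16 (1.14 and 1.6 CPM) and CALCA, the calcitonin gene, on day 38 (22.6 and 23.6 CPM). CALCA rose between days 31 and 38 (log2 fold change 2.04, SE 0.46, edgeR's adjusted p = 0.0015) and was the only 1 of the 3 that did (8.80% of all genes rose), CHGA being at 10 and 27 counts on day 31 and at 5 and 0 on day 38. The part of these cells in the levels of the 9 genes was not tested.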
